A study of Mus musculus with 66 samples.

Results

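The genes of oxidative phosphorylation are those whose products build or assemble the 5 protein complexes of the mitochondrial inner membrane that oxidise nutrients and make ATP. They were taken by symbol: every gene starting with Nduf (complex I), Sdh followed by a, b, c or d (complex II), Uqcr (complex III), Cox4 to Cox8 (complex IV) or Atp5 (complex V), provided that its log2 expression value was above 1 in at least 4 of the 66 libraries. The files held 94 such symbols, of which 87 passed, out of 11264 genes that passed the same filter and 23420 symbols in all. Complex I contributed 43 genes, complex II 6, complex III 8, complex IV 13 and complex V 17. Of the 87, 9 encode assembly factors (Ndufaf1 to Ndufaf7, Sdhaf1 and Sdhaf2) and 78 encode subunits or related proteins.

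Complexes I and II feed electrons from NADH and succinate into the respiratory chain, complex III passes them to cytochrome c, complex IV hands them to oxygen, and complex V, the ATP synthase, makes ATP from the proton gradient that complexes I, III and IV build. Complex II, succinate dehydrogenase, is also an enzyme of the tricarboxylic acid cycle, and it is the complex without a mitochondrially encoded subunit. Resting naive B cells have a low metabolic rate, stimulation through the antigen receptor or CD40 raises their respiration, and germinal centre (GC) B cells are dividing cells known for active mitochondrial metabolism.

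RNA was measured by sequencing in splenic B cells of BALB/c mice labelled MEG, which carry an IgM B1-8 BCR transgene; no unmodified strain was among the samples, so every comparison is made within this genotype. There were 33 libraries of GC B cells and 33 of naive B cells, each cultured for 2 h or 4 h, and the titles place them in 2 library sets. Each set has its own lowest value (−5.09 and −4.83 on the log2 scale), so the sets appear to have been scaled separately, and stimuli were compared only within a set. Set A (34 libraries) held cells given antibody to CD40, the cytokine IL-21, or both, and had no unstimulated cells. Set B (32 libraries) held unstimulated cells and cells given anti-CD40, anti-IgM (which engages the antigen receptor), or both antibodies. This gave 12 groups in set A, with 3 libraries each except 2 for GC cells with anti-CD40 at 2 h and for naive cells with IL-21 at 2 h, and 16 groups of 2 in set B. The labels do not say whether libraries of a group came from separate mice or cultures, and the spread that p-values rest on may therefore be technical. The treatment text describes bead purification of GC B cells and is the same for every sample; it does not say how naive cells were obtained.

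The deposited values are log2 expression levels on a per-million scale (linear sums of 926830 to 1065945 per library); read depth is unknown, so no counting interval is given. In set B the cell labels held at the marker level. All 10 GC markers were higher and all 9 naive markers lower in unstimulated GC cells than in naive cells. In set A at 2 h, summed naive markers ran from 837.1 to 1145 (linear units) in GC and from 3220 to 5311 in naive libraries. At 4 h they overlapped, from 610.5 to 3160 (median 702.2) in GC and from 2809 to 6978 in naive libraries. Summed GC markers at 4 h did not overlap (1302 to 2598 against 167.2 to 244.1). T cell, myeloid, erythroid and plasma cell transcripts were present at low levels and moved with set, cell type and time: summed erythroid markers ran from 584.3 to 1618 (linear units) in GC libraries of set A at 4 h and from 25.11 to 134.6 in those of set B, and the summed T cell list from 249.6 to 322.6 in GC and 130.6 to 156.8 in naive libraries of set A at 2 h. Within that list Cd3e was above a log2 value of 1 in 0 of 33 GC and 17 of 33 naive libraries, while Lck was higher in GC libraries (median 7.95 against 6.96) and Lat was above 1 in 10 GC and 3 naive libraries. In set B, libraries of the same cell type with the same replicate number deviated together from their group means (r between 0.53 and 0.73 in 112 of 112 pairs), so set B counts are given also with the replicate number as a block. The GC anti-CD40 library of replicate 5 at 2 h had a mean member value of 7.08 against 6.51 in the other library of its group, the widest gap among GC groups of set B; naive groups had gaps as wide, such as 6.80 against 6.06 with anti-IgM at 2 h. In these bulk samples, fewer cells of a type and less RNA per cell cannot be told apart.

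Members spanned a wide range of levels. Scaled per kilobase of exon, Atp5a1 and Atp5b, which encode the catalytic core of the ATP synthase, had the highest median levels in set B (log2 per kilobase 8.79 and 8.78), followed by the complex IV subunit Cox6a1 (8.34) and the complex I subunit Ndufa1 (8.23). The lowest were the complex IV isoform Cox6b2 (−0.95), the assembly factor Ndufaf2 (1.49) and Cox7a1 (1.49). The median exon length was 1.79 kb for members against 4.42 kb for all tested genes with a length. The 85 members with coordinates lay on 19 chromosomes. Of the 7 symbols that did not pass, Cox4i2, Cox6a2, Cox7b2, Cox8b, Cox8c and Ndufa4l2 encode alternative isoforms of subunits, several of them typical of muscle or testis, and Ndufs5 encodes a complex I subunit. The highest value among these was 0.70, for Cox6a2, while Cox6b2 passed narrowly, with 4 libraries above 1 and a highest value of 1.56. None of the 13 mitochondrially encoded subunits was among the symbols in the files, so complexes I, III, IV and V are described here only by their nuclear genes.

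**Figure D1:**
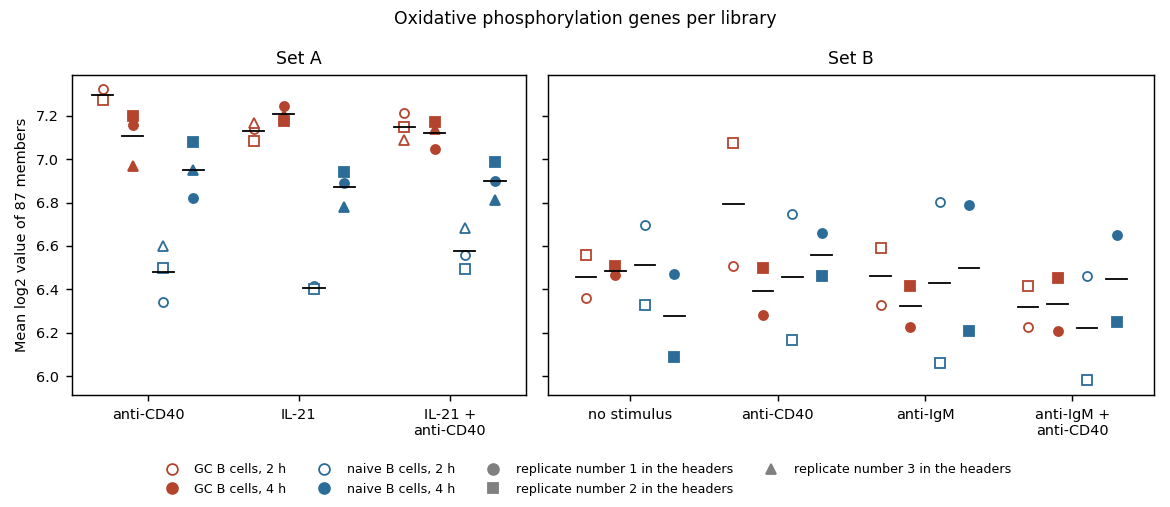
Mean log2 value of the 87 members in each library (y axis), by stimulus (x axis) and set; red is GC, blue is naive, open symbols are 2 h, filled symbols 4 h, the marker shape gives the replicate number and each bar is a group mean. In set A naive cells at 2 h are the lowest groups (means 6.41 to 6.58), and in set B libraries of one group lie apart by replicate number.

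The assembly factors Sdhaf1 of complex II and Ndufaf4 of complex I had the largest rises with stimulation in GC cells. Sdhaf1 encodes a small factor that helps insert iron-sulfur clusters into the succinate dehydrogenase subunit Sdhb. In set B its log2 value in unstimulated GC cells was 4.21 and 3.98 at 2 h and 4.34 and 3.85 at 4 h. With anti-CD40 it was 6.27 and 6.45 at 2 h and 6.06 and 5.73 at 4 h, and with both antibodies 5.92, 5.73, 6.12 and 5.86. Anti-IgM alone gave 4.43, 4.45, 4.75 and 4.46. All GC libraries with anti-CD40 thus lay above all GC libraries without it. Averaged over both times, Sdhaf1 rose by 2.03 ± 0.14 on the log2 scale (SE; limma with Benjamini-Hochberg adjustment over 11264 genes, adjusted p = 5.86e-09) with anti-CD40 and by 1.81 ± 0.14 (adjusted p = 1.33e-08) with both antibodies, while the difference with anti-IgM was 0.42 ± 0.14 (adjusted p = 0.0774, and 0.00446 with the replicate block).

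In naive cells Sdhaf1 started higher and moved differently. Unstimulated naive libraries were at 6.17 and 6.48 at 2 h and 5.85 and 5.66 at 4 h, and the 4 libraries with anti-CD40 were at 6.25 to 6.74. Those with anti-IgM were at 5.26 to 5.64 and those with both antibodies at 5.54 to 5.85. The anti-IgM libraries were all below the unstimulated ones. Sdhaf1 rose by 0.47 ± 0.14 with anti-CD40 (limma, Benjamini-Hochberg adjusted p = 0.0189) and fell by 0.59 ± 0.14 with anti-IgM (adjusted p = 0.00363), and with both antibodies it was lower than with anti-CD40 alone by a log2 difference of −0.83 ± 0.14 (adjusted p = 0.000365). The effect on Sdhaf1, GC minus naive, was 1.57 ± 0.20 for anti-CD40 (interaction, adjusted p = 8.1e-05), 1.01 ± 0.20 for anti-IgM (0.00316) and 2.17 ± 0.20 for both (5.43e-07). Unstimulated GC cells had less Sdhaf1 than naive cells (−1.95 ± 0.14, adjusted p = 9.86e-10).

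In set A too, Sdhaf1 was lower in the libraries without anti-CD40. GC libraries with IL-21 alone were at 4.31, 4.36 and 4.24 at 2 h and 4.70, 4.51 and 4.36 at 4 h, and those with IL-21 and anti-CD40 at 6.30, 6.04 and 5.95 at 2 h and 6.39, 6.59 and 6.59 at 4 h. GC libraries with anti-CD40 alone were at 6.34 to 6.84. Naive libraries with IL-21 alone were at 5.42 to 5.62, and those with anti-CD40, with or without IL-21, at 6.37 to 6.97. In both cell types the libraries without anti-CD40 did not overlap those with it. Adding anti-CD40 to IL-21 raised Sdhaf1 by 1.90 ± 0.08 in GC cells (limma, adjusted p = 4.38e-19) and by 1.12 ± 0.08 in naive cells (8.72e-13), and the difference between cell types was 0.78 ± 0.11 (3.97e-06). The exons of Sdhaf1 overlap those of the opposite-strand gene E130208F15Rik over 69.6% of their length, and whether the counting used strand is not given in the sources used here, so reads of the pair cannot be told apart.

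Ndufaf4 encodes a factor needed to assemble complex I. In unstimulated GC cells it was at 4.13 and 4.34 at 2 h and 3.96 and 4.10 at 4 h, and with anti-CD40 at 5.0 and 5.31, then 5.58 and 5.89. With anti-IgM it was at 4.49 to 4.80 and with both antibodies at 5.63 to 5.85. Every stimulated GC library was above every unstimulated one. In naive cells without stimulus Ndufaf4 was at 6.87 and 6.52 at 2 h and at 5.34 and 5.04 at 4 h, a change of −1.5 ± 0.22 over time (limma, adjusted p = 0.000235), while with both antibodies it was between 6.98 and 7.52. Averaged over both times, Ndufaf4 was higher with each stimulus than without in each cell type: in GC cells by 1.31 ± 0.16 (anti-CD40, adjusted p = 6.27e-06), 0.52 ± 0.16 (anti-IgM, 0.0427) and 1.62 ± 0.16 (both, 1.96e-07), and in naive cells by 0.85 ± 0.16 (0.000361), 0.97 ± 0.16 (9.61e-05) and 1.24 ± 0.16 (3.11e-06). The naive averages include the lower unstimulated level at 4 h. At 2 h alone 0 members, and so not Ndufaf4, were called in naive cells with anti-CD40 (3.49% of all genes higher and 4.57% lower). The anti-IgM call in GC cells was marginal: it ended without a filter (adjusted p = 0.0748), with libraries centred (0.0504), without trend and robust moderation (0.0505) and without 1 of several libraries in turn (up to 0.149), and with the replicate block it was 0.00019. In set A, IL-21 and anti-CD40 together gave higher Ndufaf4 than anti-CD40 alone, by 0.78 ± 0.07 in GC cells (2.35e-10) and 0.31 ± 0.07 in naive cells (0.000575), and higher than IL-21 alone, by 1.43 ± 0.07 (1.54e-17) and 0.86 ± 0.07 (1.39e-11). GC cells had less Ndufaf4 than naive cells without stimulus (−1.81 ± 0.16) and with both antibodies (−1.42).

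**Figure D2:**
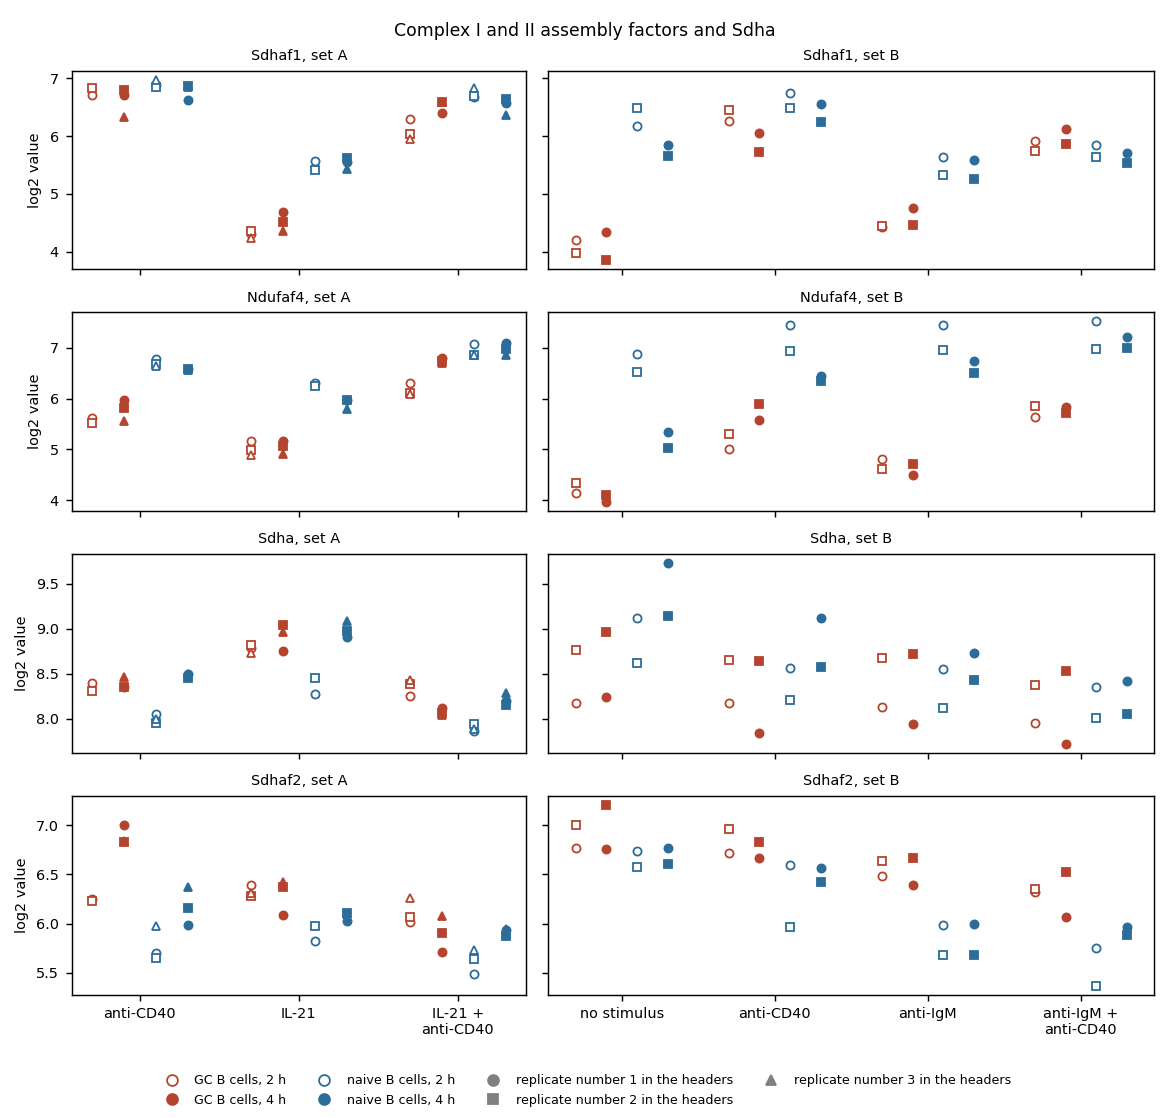
Log2 value (y axis) of Sdhaf1, Ndufaf4, Sdha and Sdhaf2 in each library by stimulus (x axis), set A left and set B right; red is GC, blue is naive, open symbols are 2 h and filled symbols 4 h. Sdhaf1 in GC cells lies at 3.85 to 4.75 in all libraries without anti-CD40 and at 5.73 to 6.84 in all with it.

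Promoters are shown for these assembly factors and for 2 subunits, Ndufs7 and Uqcr11. Among the subunits that are members, these 2 had the largest rises over time in naive cells of set A with anti-CD40. The sequences run 5′ to 3′ from 250 bases before to 50 after the annotated start (RefSeq, GRCm38.p6, Ndufaf4 chr4:24897833-24898132, plus strand, Ndufs7 chr10:80249199-80249498, plus strand, Sdhaf1 chr7:30322326-30322625, minus strand, Uqcr11 chr10:80406772-80407071, minus strand) and capitals mark every match to the motifs counted in the next paragraph: NRF1 in Ndufaf4, YY1 in Ndufs7, ETS in Sdhaf1 (as its reverse complement), and ETS then NRF1 in Uqcr11.
Ndufaf4: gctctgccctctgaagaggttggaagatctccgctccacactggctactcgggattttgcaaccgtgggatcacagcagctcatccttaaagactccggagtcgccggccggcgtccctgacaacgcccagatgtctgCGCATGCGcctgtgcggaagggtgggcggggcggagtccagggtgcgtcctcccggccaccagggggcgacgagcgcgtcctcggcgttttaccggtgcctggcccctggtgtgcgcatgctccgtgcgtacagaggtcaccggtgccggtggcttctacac
Ndufs7: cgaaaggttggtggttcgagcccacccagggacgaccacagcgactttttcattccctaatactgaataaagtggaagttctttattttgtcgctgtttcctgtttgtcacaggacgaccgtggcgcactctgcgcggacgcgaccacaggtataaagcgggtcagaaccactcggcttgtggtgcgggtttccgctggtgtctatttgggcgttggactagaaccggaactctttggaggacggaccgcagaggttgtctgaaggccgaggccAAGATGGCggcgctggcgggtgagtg
Sdhaf1: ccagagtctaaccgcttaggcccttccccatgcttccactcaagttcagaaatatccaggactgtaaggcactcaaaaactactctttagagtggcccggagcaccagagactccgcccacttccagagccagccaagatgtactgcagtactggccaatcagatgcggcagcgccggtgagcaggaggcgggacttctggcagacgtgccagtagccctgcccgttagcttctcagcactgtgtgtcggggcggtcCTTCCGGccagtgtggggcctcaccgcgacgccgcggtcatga
Uqcr11: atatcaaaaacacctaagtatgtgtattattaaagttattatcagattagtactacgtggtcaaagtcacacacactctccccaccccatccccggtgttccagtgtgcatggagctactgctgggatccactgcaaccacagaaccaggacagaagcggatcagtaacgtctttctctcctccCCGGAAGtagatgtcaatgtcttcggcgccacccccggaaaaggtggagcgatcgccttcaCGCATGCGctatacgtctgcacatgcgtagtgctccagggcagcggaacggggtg

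NRF1, GABP (an ETS factor) and YY1 are textbook regulators of nuclear respiratory genes. Of the 87 members, 72 matched a RefSeq promoter, and exact motifs were searched on both strands and counted also in all 27025 promoters of the same length. The core of the NRF1 motif, CGCATGCG, was in 15.3% of member promoters and 2.07% of all, the ETS motif CCGGAAG in 26.4% and 9.93%, and the YY1 motif AAGATGGC in 12.5% and 3.19%. The cyclic AMP response element TGACGTCA was in 5.56% and 2.03%, the E-box CACGTG bound by Myc and its relatives in 6.94% and 8.09%, and the NF-kB motif GGGNNTTCC in 5.56% and 6.58%. The 11 members with the NRF1 core were Atp5g2, Atp5j, Atp5k, Atp5l, Cox6a1, Ndufa8, Ndufa11, Ndufaf4, Ndufaf5, Uqcr11 and Uqcrc1, and the 4 with the NF-kB motif were Cox5b, Ndufa4, Ndufs8 and Sdhb. No match overlapped another in the promoters shown. These matches describe letters in the window and are not evidence of binding.

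Among the other genes of complex II, Sdha, the flavoprotein subunit that oxidises succinate, fell in naive cells with both antibodies and in both cell types when anti-CD40 joined IL-21. In naive cells of set B it was at 9.12 and 8.62 without stimulus at 2 h and 9.73 and 9.14 at 4 h, and at 8.35, 8.01, 8.42 and 8.05 with both antibodies. The groups did not overlap, and Sdha fell by 0.94 ± 0.27 (limma, adjusted p = 0.00743). The differences with anti-CD40 (−0.53 ± 0.27, adjusted p = 0.153) and anti-IgM (−0.69, 0.0565) passed only with the replicate block (6.67e-06 and 1.44e-07). In set A Sdha was at 8.73 to 9.04 in GC cells with IL-21 and at 8.04 to 8.43 with IL-21 and anti-CD40, without overlap, and fell by 0.63 ± 0.05 in GC cells (4.69e-12) and in naive cells (2.58e-11) when anti-CD40 was added. Sdhaf2, which helps attach the flavin cofactor to Sdha, fell in naive cells with anti-IgM (−0.84 ± 0.15, 0.000346) and with both antibodies (−0.93 ± 0.15, 6.93e-05), in GC cells with both antibodies (−0.62 ± 0.15, 0.00489), and in GC cells when IL-21 was added to anti-CD40 (−0.56 ± 0.08, 1.27e-06). The 2 assembly factors of complex II thus moved in opposite directions in GC cells with both antibodies.

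Few subunits passed the test against unstimulated cells in set B. With anti-CD40, GC cells had 2 members higher and 1 lower (7.49% and 6.45% of all genes tested), with anti-IgM 1 and 1 (5.81% and 3.23%), and with both antibodies 2 and 5 (13.9% and 12.4%). Naive cells had 7 higher and 1 lower with anti-CD40 (13.9% and 14.8% of all genes), 9 and 3 with anti-IgM (15.3% and 15.2%), and 6 and 7 with both (20.7% and 21.6%). Averaged over both times, the median log2 difference of members was between −0.23 and 0.07 in these 6 comparisons. These averages can hide opposite shifts: GC cells with anti-CD40 had a median of 0.34 at 2 h and −0.18 at 4 h. In naive cells the medians at 2 h and 4 h were −0.08 and 0.27 with anti-CD40, −0.10 and 0.24 with anti-IgM, and −0.33 and 0.11 with both. GC cells had 0.004 and −0.139 with anti-IgM, and −0.175 and −0.253 with both. The contrast between times was not tested for these effects. With the replicate block the GC counts were 7 and 3 with anti-CD40 (17.2% and 18% of all genes with the block) and 2 and 2 with anti-IgM (12.7% and 10.8%), and the naive counts 24 and 9 (27.1% and 25.6%) and 21 and 9 (27.8% and 26.2%). Without the block, the naive count of members with anti-CD40 was 5 in either direction without each of 5 libraries in turn (unstimulated replicates 1 and 2 at 2 h and 2 at 4 h, anti-CD40 replicates 4 and 5 at 4 h), and that with anti-IgM was 6 without anti-IgM replicate 1 at 2 h and 7 without unstimulated replicate 2 at 2 h or anti-IgM replicate 1 at 4 h. The block counts with both antibodies were 3 higher and 34 lower in GC cells (23.3% and 24.8% of all genes with the block) and 16 and 31 in naive cells (31.9% and 31.2%). Without the GC anti-CD40 library of replicate 5 at 2 h, the block counts for anti-CD40 in GC cells were 3 and 2, and the median turned from 0.07 to −0.08 without the block. Tested as an interaction, the effect of anti-CD40 was higher in GC than in naive cells for 1 member and lower for 0 (2.65% and 1.46% of all genes), that of anti-IgM for 1 and 0 (5.03% and 3.82%), and that of both for 1 and 2 (7.08% and 4.84%); the block gave 3 and 0 (10.7% and 8.9%), 3 and 16 (14.7% and 14.9%), and 3 and 12 (17.5% and 15.5%).

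In GC cells Atp5sl, counted here under complex V by its symbol, fell with each stimulus. It was at 5.92 and 5.86 without stimulus at 2 h and at 6.0 in both libraries at 4 h, at 5.41 to 5.71 with anti-CD40, at 4.92 to 5.32 with anti-IgM and at 4.71 to 5.13 with both antibodies. Each stimulated group lay below the unstimulated libraries, and Atp5sl fell by 0.39 ± 0.13 (limma, adjusted p = 0.0451), 0.77 ± 0.13 (0.00036) and 0.94 ± 0.13 (1.15e-05). The Atp5sl call with anti-CD40 ended without 1 of several libraries in turn, with adjusted p up to 0.175 (without GC anti-CD40 replicate 5 at 2 h), and was 0.00124 with the block. In naive cells the members that rose included the complex III Rieske iron-sulfur protein Uqcrfs1, by 0.56 with anti-CD40 (0.00506), 0.79 with anti-IgM (0.000265) and 0.83 ± 0.14 with both (9.1e-05). The complex I assembly factor Ndufaf2 rose by 0.87 ± 0.19 (0.00189), 0.54 (0.039) and 1.00 ± 0.19 (0.000283), and Ndufaf6, another complex I assembly factor, by 1.02 (0.0358), 1.05 (0.029) and 1.31 ± 0.35 (0.00522). Those that fell with both antibodies included the complex I subunits Ndufv3 (−0.71, 0.0136) and Ndufb10 (−0.56, 0.0267) and the ATP synthase gamma subunit Atp5c1 (−0.52, 0.0209). Ndufaf2 shares 65.6% of its exon length with an opposite-strand non-coding gene, B230220B15Rik.

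**Figure D3:**
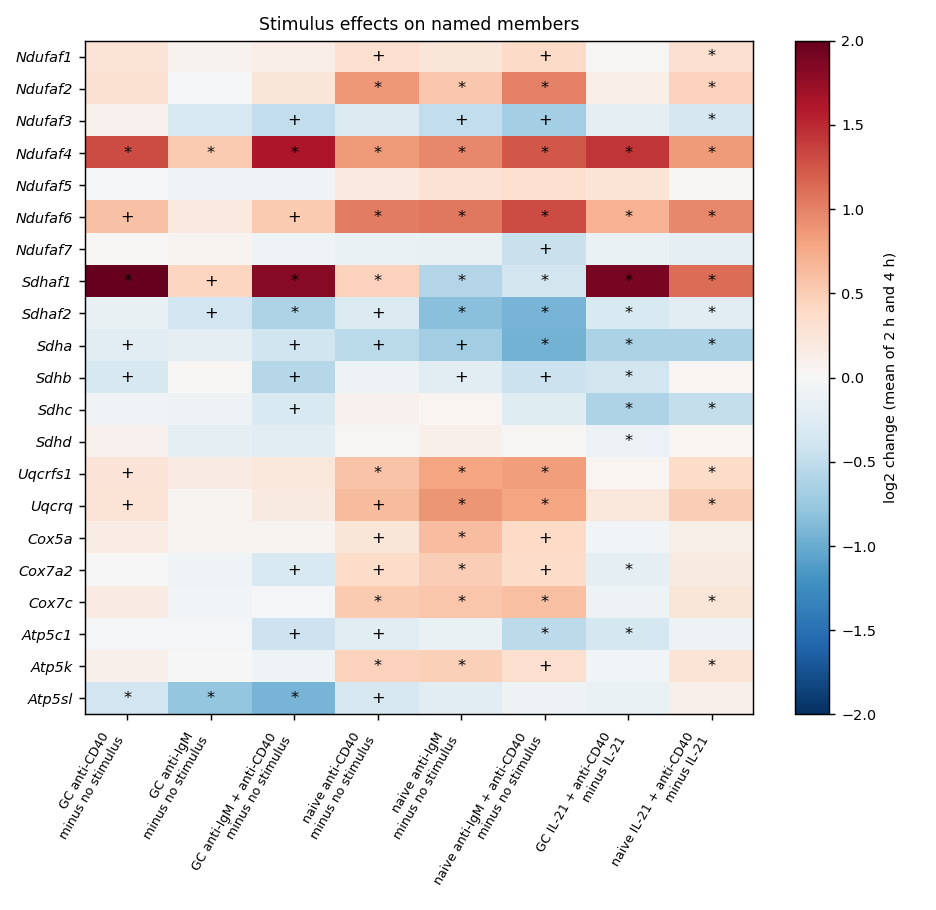
Log2 difference (colour, from −2 to 2) of named members (rows) in 8 comparisons (columns) of stimuli within a set; an asterisk marks an adjusted p under 0.05 and a plus sign, in set B columns, one that passes only with the replicate block. Sdhaf1 and Ndufaf4 are the darkest rows in the GC columns with anti-CD40 (2.03 and 1.31).

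Anti-CD40 and anti-IgM together were also compared with anti-CD40 alone in set B. Members lay lower with both antibodies, with a median of −0.28 in GC cells and −0.21 in naive cells, but 0 higher and 1 lower passed in GC cells (5.66% and 3.65% of all genes) and 0 and 3 in naive cells (6.88% and 7.56%). With the replicate block 1 was higher and 33 lower in GC cells (13.6% and 12.6% of all genes with the block) and 2 and 28 in naive cells (16.3% and 17.9%). The GC difference had a median of −0.49 at 2 h and −0.04 at 4 h, a contrast that was not tested. It rested in part on the GC anti-CD40 library of replicate 5 at 2 h: without it the median was −0.13, and 1 member was higher and 9 were lower with the block. At 2 h, 85 of 87 members were lower within replicate number 1 and within number 2, and number 2 uses that library. The share of all genes lower within a number was not computed, and their median difference at 2 h was −0.045. By limma, 0 members were called higher and 1 lower at 2 h (2.77% and 1.28% of all genes).

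In GC cells of set A, adding anti-CD40 to IL-21 was followed by lower levels of most complex II genes. Of the 87 members, 32 fell (36.8%, against 31.1% of all genes) and 7 rose (8.05%, against 25.5%), with a median of −0.06. Complex II had 5 of its 6 members lower and 1, Sdhaf1, higher, and complex V had 8 of 17 lower. The core subunits of the ATP synthase head fell, Atp5b by 0.47 ± 0.09 (limma, adjusted p = 8.14e-05) and Atp5a1 by 0.43 ± 0.05 (9.65e-09), as did the complex II membrane anchor Sdhc (−0.62 ± 0.11, 1.68e-05), its iron-sulfur subunit Sdhb (−0.36 ± 0.06, 1.03e-05) and the complex III subunit Uqcrb (−0.37 ± 0.05, 4.82e-07). In naive cells the same addition gave 30 higher and 14 lower (26.6% and 28.6% of all genes), and the interaction had 2 members relatively higher and 22 lower in GC cells (11.2% and 10% of all genes). Both times are averaged in these counts. At 2 h alone, GC cells had 2 higher and 7 lower (11.4% and 12.5%), and at 4 h 11 and 32 (28.2% and 31.7%). Naive cells had 25 and 11 at 2 h (14.7% and 19.8%) and 20 and 19 at 4 h (27.6% and 25.6%). The interaction had 2 and 1 at 2 h (4.48% and 2.34%) and 3 and 24 at 4 h (10.7% and 12.6%). Its medians were −0.194 and −0.167, and the contrast between times was not tested.

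Adding IL-21 to anti-CD40 moved fewer members. In GC cells 2 rose and 11 fell (15.4% and 17.8% of all genes), and in naive cells 5 rose and 4 fell (10.6% and 13.7%), and the interaction had 1 member higher and 2 lower in GC cells (3.12% and 2.65%). Without GC anti-CD40 replicate 1 at 2 h the GC count was 1 and 6, and the naive count was 2 and 2 without naive replicate 1 with both at 2 h or naive anti-CD40 replicate 3 at 4 h and 2 and 3 without naive replicate 2 with both at 4 h. In GC cells the falls included Cox7a2l, which encodes a supercomplex assembly protein related to a complex IV subunit (−0.47 ± 0.11, limma adjusted p = 0.000952) and Uqcrb (−0.30 ± 0.06, 8.96e-05). IL-21 alone against anti-CD40 alone gave 17 higher and 10 lower in GC cells (22.9% and 20%) and 9 and 17 in naive cells (22.4% and 20.5%). These counts average both times. At 2 h alone, GC cells had 8 higher and 16 lower (14.2% and 11.8% of all genes), and at 4 h 34 and 7 (20.8% and 21.5%). For IL-21 added to anti-CD40, GC cells had 1 and 2 at 2 h (6.12% and 2.72%) and 11 and 14 at 4 h (22.1% and 26.2%). The complex IV isoform Cox7a1, best known from muscle, was lower in naive cells with IL-21 than with anti-CD40 (−2.02) and rose by 1.56 ± 0.28 when anti-CD40 was added to IL-21. Cox7a1 was a low member, above a log2 value of 1 in 29 of 66 libraries, with a lowest value of −4.86.

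In naive cells of set A most members rose between 2 h and 4 h, whatever the stimulus. Between 2 h and 4 h with anti-CD40, 66 members rose (75.9%, against 29.8% of all genes) and 4 fell (27.2% of all genes), with a median of 0.49. With IL-21, 62 rose and 1 fell (20.7% and 22.1%; median 0.48), and with both 55 rose and 6 fell (30.6% and 26.8%; median 0.35). Complex I had 38 of 43 higher and 0 lower with anti-CD40, and complex V had 15 of 17 higher and 0 lower, while complex IV had 5 higher and 3 lower of 13.

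Ndufs7, a core iron-sulfur subunit of complex I, was at 5.89, 6.35 and 6.41 in naive cells with anti-CD40 at 2 h and at 7.38, 7.39 and 7.33 at 4 h. Uqcr11, a small complex III subunit, went from 5.66, 5.89 and 6.09 to 6.92, 7.42 and 7.30. Ndufb8, a membrane-arm subunit of complex I, went from 7.45, 7.63 and 7.69 to 8.47, 8.92 and 8.58. In each case all libraries at 4 h were above all at 2 h. The rises were 1.15 ± 0.12 for Ndufs7 (limma, adjusted p = 8.2e-10), 1.33 ± 0.15 for Uqcr11 (9.76e-09), 1.06 ± 0.14 for Ndufb8 (1.78e-07) and 1.39 ± 0.18 for the assembly factor Ndufaf5 (1.12e-07), and Cox6b2, near the detection limit, fell by 1.34 ± 0.50 (0.0227). With IL-21 alone Uqcr11 went from 5.87 and 5.71 to 7.12, 7.06 and 6.78. Over the same interval summed markers of other cells were lower in naive libraries of set A: the 7 myeloid markers summed to between 143.2 and 187 (linear units) at 2 h and between 66.3 and 102.6 at 4 h, the 4 erythroid markers to between 265.8 and 487.2 and then between 109.7 and 200.8. The 7 T cell markers gave 130.6 to 156.8 and then 66.77 to 101.9, and the plasma cell markers 339.4 to 448.9 and then 119.3 to 308.4. Their part in the rise was not tested.

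GC cells of set A with anti-CD40 went the other way over the same interval: 42 members fell (48.3%, against 22.1% of all genes) and 11 rose (12.6%, against 26%), with a median of −0.26. Without the second library at 2 h, 26 fell and 7 rose. All 8 complex IV calls and 11 of 13 complex V calls were falls, while the 6 assembly factors called, of 9, all rose. Ndufb11, a membrane-arm subunit of complex I, was at 7.70 and 7.66 at 2 h and at 6.63, 7.09 and 6.70 at 4 h. Ndufa13, another complex I subunit, went from 7.69 and 7.74 to 6.67, 7.08 and 6.80, and the complex IV subunit Cox8a from 8.88 and 8.89 to 8.02, 8.37 and 8.12. For all 3 genes the times did not overlap, and they fell by 0.87 ± 0.14 (limma, adjusted p = 4.79e-06), 0.87 ± 0.16 (6.15e-05) and 0.72 ± 0.12 (7.2e-06). The assembly factors Ndufaf1 and Sdhaf2 rose by 0.71 ± 0.13 and 0.65 ± 0.12. The summed plasma cell markers of GC libraries of set A ran from 1095 to 2058 at 2 h and from 292.1 to 1905 at 4 h, and the T cell markers from 249.6 to 322.6 and then from 137.7 to 188.1. The myeloid markers gave 60.4 to 106.1 and then 41.72 to 110, and the erythroid markers 699.3 to 1529 and then 584.3 to 1618; their part in the change was not tested. Ndufs7 rose in GC cells with IL-21 and anti-CD40, from 6.76, 6.71 and 6.60 to 7.55, 7.71 and 7.71.

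With IL-21 alone, 17 members of GC cells rose and 0 fell between the times (16.9% and 16.9% of all genes; median 0.09), among them Ndufs1, Ndufv2 and Ndufa9 of complex I and Uqcrc1 and Uqcrc2 of complex III. With IL-21 and anti-CD40, 22 rose and 28 fell (29.3% and 30.5%; median −0.09), and 7 of the 9 assembly factors rose and 0 fell. The falls were led by Sdhc (−0.87 ± 0.16, limma adjusted p = 1.94e-05), the complex I subunit Ndufb3 (−0.66 ± 0.11, 3.97e-06) and the complex V subunit Atp5j (−0.59 ± 0.08, 1.85e-07). The contrast between these time courses within GC cells was not tested.

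**Figure D4:**
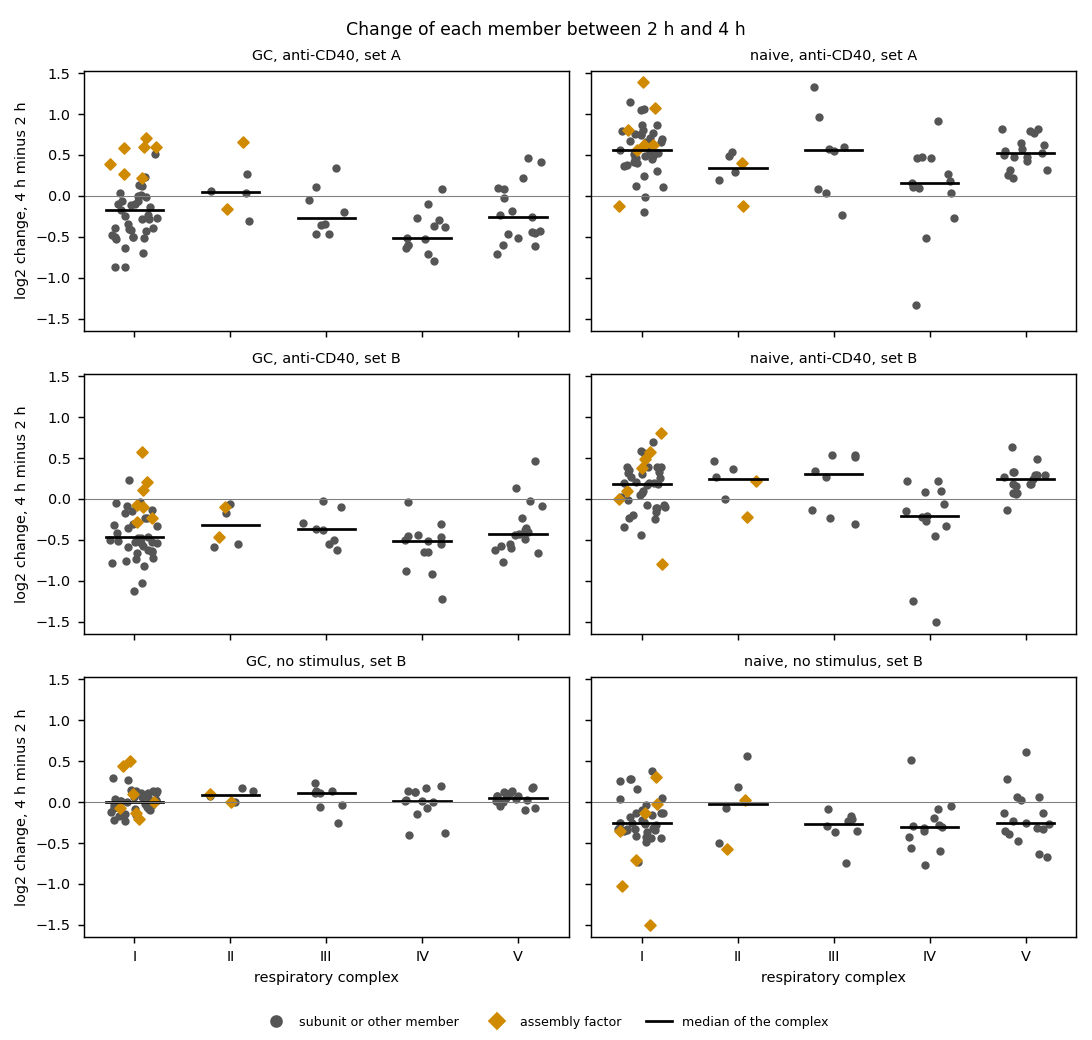
Log2 change from 2 h to 4 h (y axis) of each member by complex (x axis) for GC and naive cells with anti-CD40 in set A, anti-CD40 in set B and no stimulus in set B; diamonds are assembly factors and each line is a complex's median. Most members of naive cells with anti-CD40 in set A lie above 0 (median 0.49) and most of GC cells below it (−0.26 in set A, −0.46 in set B).

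The difference between cell types in the change over time was itself tested. With anti-CD40 in set A the change was smaller in GC than in naive cells for 65 members and larger for 1 (14.2% and 14.8% of all genes), with a median of −0.71. The largest differences were Uqcr11 (−1.68 ± 0.22), Ndufb8 (−1.59 ± 0.21) and the complex IV subunit Cox7b (−1.56 ± 0.18), and the exception was Ndufs1, the large iron-sulfur subunit of complex I (0.39). With IL-21 and anti-CD40 it was lower for 43 and higher for 3 (16.3% and 11%; median −0.37). In set B with anti-CD40 the median was −0.56, but 1 was higher and 1 lower (0.648% and 0.888% of all genes), or 1 and 39 with the replicate block (7.72% and 9.14%), and 1 and 15 with the block once the GC library of replicate 5 at 2 h was left out.

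In set B, with 2 libraries a group, fewer members passed over time. In GC cells with anti-CD40, Ndufa13, Ndufb11, Cox8a, Ndufb5 and Sdhc fell and 0 rose (5.51% and 4.83% of all genes; median −0.46), and Ndufa13, Ndufb11 and Cox8a had also fallen in set A. With the block 50 fell and 1 rose (16.6% and 16%). Without the GC anti-CD40 library of replicate 5 at 2 h, 0 fell, or 9 with the block (median −0.14, or −0.25 with it), without that of replicate 5 at 4 h 0 fell, and without that of replicate 4 at 4 h 2 did. Unstimulated GC cells had 0 members called (0.0621% higher and 0.151% lower of all genes), also with the block (2.15% and 2.58%), and a median of 0.02. With both antibodies GC cells had 0 called by limma (4.1% and 4.31%); in both comparisons 0 members had an unadjusted p under 0.05. With both antibodies the block gave 4 higher and 1 lower (15% and 13.9%).

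In naive cells of set B the change over time was compared between stimuli. Without one, members lay lower at 4 h than at 2 h (median −0.27; −0.25 and −0.22 within the 2 replicate numbers), with 1 called higher and 2 lower (7.95% and 7.17% of all genes), or 5 and 22 with the block (20.4% and 21.4%). With both antibodies they lay higher (median 0.27; 0.23 and 0.25 within the numbers), with 4 called higher and 0 lower (9.83% and 10.6%), or 32 and 1 with the block (24% and 20.2%). The difference of these changes had a median of 0.41, with 4 members higher and 0 lower (4.53% and 6.62%), or 35 and 1 with the block (18.5% and 15.9%). Ndufaf2 was at 3.60 and 3.12, then 2.76 and 2.55 in unstimulated naive cells, and at 3.49 and 3.54, then 4.53 and 4.48 with both antibodies, so the directions were opposite. Ndufaf7, a methyltransferase needed to assemble complex I, rose by 1.22 ± 0.25 with both antibodies (limma, adjusted p = 0.00172). With anti-CD40 alone the median was 0.19, but the replicate numbers differed in sign (−0.06 within number 1 and 0.37 within number 2). Here 2 were called higher and 1 lower (7.88% and 7.68%), or 19 and 3 with the block (20.9% and 18.9%). Summed myeloid markers were lower at 4 h in naive libraries of set B as well (136.4 to 331.2 at 2 h, 61.8 to 114.4 at 4 h), and their part was not tested.

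GC and naive cells were compared under matched stimuli, although it is unknown whether libraries of both cell types were scaled together. With anti-CD40 in set A, 69 of 87 members were higher in GC cells and 3 lower (34.9% and 38.5% of all genes), with a median of 0.49 against −0.06 for all genes. Complex I had 33 of 43 higher, complex III 6 of 8, complex IV 11 of 13 and complex V 15 of 17, and among the 9 assembly factors 4 were higher and 1 lower. Uqcr11 in GC cells was at 8.14 and 8.09 at 2 h and at 7.69, 8.02 and 7.60 at 4 h, above every naive library with anti-CD40, and was higher by 1.39 ± 0.11. At 2 h 75 members were higher and 1 lower (31.3% and 32.9% of all genes; median 0.84), and at 4 h 33 were higher and 11 lower (30.1% and 33.8%; median 0.14). The Cox7a2l, Cox6b2 and Ndufaf3 differences were 1.23, 1.85 and 1.15, but Cox6b2 was near the detection limit, above a log2 value of 1 in only 4 of 66 libraries. At 2 h, where the difference was larger, summed markers also differed between GC and naive libraries of set A. Plasma cell markers were at 1095 to 2058 against 339.4 to 448.9, erythroid markers at 699.3 to 1529 against 265.8 to 487.2 and T cell markers at 249.6 to 322.6 against 130.6 to 156.8, while myeloid markers were at 60.4 to 106.1 against 143.2 to 187. Their part in the difference was not tested.

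In set B the comparison with anti-CD40 had a median of 0.05, with 21 members higher and 8 lower (24.8% and 29.6% of all genes), or 54 in either direction with the block (75% of all genes). Without stimulus 18 were higher and 4 lower (24.1% and 29.6%; median 0.08), or 53 with the block (74.8%), and with both antibodies 17 and 10 (25.7% and 28.3%; median −0.02), or 55 with the block (74.3%). The counts were lowest without GC anti-CD40 replicate 4 at 4 h (15 and 3), unstimulated GC replicate 1 at 4 h (11 and 2) and GC replicate 1 with both antibodies at 2 h (10 and 7). Between libraries of equal number, members' medians were negative for number 1 (−0.66 to −0.09) and mostly positive for number 2 (up to 0.94). The labels do not say that a number is shared between cell types, and equal-numbered GC and naive libraries deviated in opposite directions (r −0.75 to −0.53). With the numbers crossed, a pairing added after the data were seen, the medians lay between −0.25 and 0.39 for GC number 1 and between −0.37 and 0.32 for GC number 2. The sign thus varied with the pairing and the stimulus, and no overall difference between the cell types is given for set B. Cox7a2l was at 6.69 to 8.37 in GC cells of set B and at 5.94, 6.84, 5.73 and 6.34 in unstimulated naive cells, and was higher in unstimulated GC cells by 1.72. Cox7a1, a low member above 1 in 29 of 66 libraries, was higher by 2.14. The c-subunit gene Atp5g2 was higher by 1.46, Atp5sl by 1.23 ± 0.13 and the small complex V subunit Atp5k by 1.08. All 7 complex V calls and all 4 complex IV calls without stimulus were higher in GC cells.

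**Figure D5:**
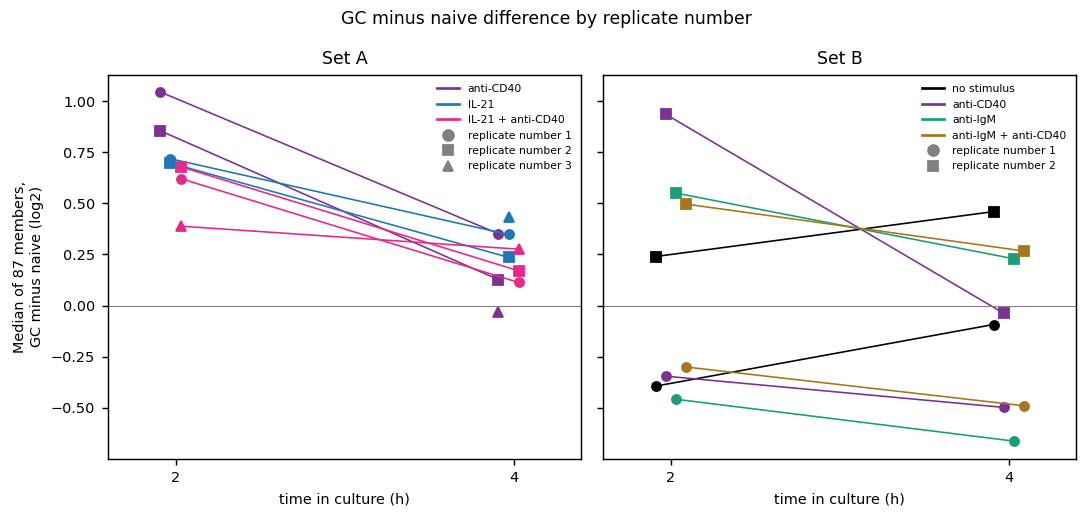
Median over the 87 members of the log2 difference GC minus naive (y axis) against time in culture (x axis, h) for set A and set B; colour is the stimulus, marker shape the replicate number as written in the column headers (in set B, replicates 4 and 5 of anti-CD40 count as numbers 1 and 2), and lines join the times of one number. In set A at 2 h with anti-CD40 the values are 0.86 and 1.05, and in set B, with equal numbers joined, number 1 lies below 0 and number 2 mostly above.

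Genes of the same pathway outside the symbol rule were counted in the same fits. Of the 40 further assembly factors, 27 rose and 1 fell with time in naive cells of set A with anti-CD40 (29.8% and 27.2% of all genes; median 0.46), among them Lyrm7 (2.34 ± 0.33) and Bcs1l (1.83 ± 0.16), which insert the Rieske protein into complex III, and Lrpprc (1.54 ± 0.11), which stabilises mitochondrial mRNAs. In GC cells 19 rose and 7 fell (26% and 22.1%), with Lyrm7 at 2.17 ± 0.37. Of the 18 genes of the tricarboxylic acid cycle and pyruvate dehydrogenase, 14 fell and 1 rose in GC cells when anti-CD40 was added to IL-21 (31.1% and 25.5% of all genes; median −0.23), with fumarase Fh1 at −0.64 ± 0.06 and citrate synthase Cs at −0.52 ± 0.05, and 11 rose and 2 fell over time in naive cells with anti-CD40 (29.8% and 27.2%), with the succinyl-CoA ligase subunit Suclg1 at 1.19 ± 0.08. Subunit and electron carrier genes outside the rule moved less uniformly: cytochrome c, Cycs, rose in naive cells with anti-CD40 (0.76 ± 0.25, limma adjusted p = 0.0262), anti-IgM (0.80 ± 0.25, 0.0192) and both (0.89 ± 0.25, 0.00684), and the complex III subunit cytochrome c1, Cyc1, rose over time by 1.18 ± 0.09 in naive and 0.66 ± 0.10 in GC cells of set A with anti-CD40.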

How the data were processed

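RNA was sequenced from 66 libraries made with a low-input full-length kit, per the labels' protocols. The submitters' processing notes name the mm10 genome, limma, featureCounts (Subread 2.0.1), the aligner STAR 2.6.1a, and Trim Galore 0.6.5 and FastQC 0.11.7, without their order. The authors deposited log2 values per gene and library, by a normalisation not given in the sources used here. They appear to have been scaled separately in the 2 library sets. In set B all libraries of a cell type and number shared their highest value (GC 13.835 and 14.323, naive 14.582 and 14.323 for numbers 1 and 2). Most in set A did so too (14.634, 14.651 and 14.668 in GC, 14.671, 14.647 and 14.623 in naive cells). There, GC anti-CD40 replicate 1 at 4 h held the naive value 14.671. It is unknown whether GC and naive libraries were scaled together, and each cell type and number may have had its own scale. Reads could not be recovered from the deposited values, so no count model was used. Symbols above a log2 value of 1 in at least 4 libraries were tested (11264 of 23420).

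Each set was fitted by itself with limma 3.58.1 (R 4.3.3, statmod 1.5.0; trend and robust moderation) on groups of cell type, stimulus and time, with no covariate. Stimulus and cell type differences average 2 h and 4 h. P-values were adjusted by the Benjamini-Hochberg method over all tested genes, with calls under 0.05, two-sided, and errors are standard errors. Anti-CD40 libraries of the 2 sets were never compared. The procedure was first tested on simulated data.

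In set B, replicate numbers were taken to pair libraries within a cell type (replicates 4 and 5 of anti-CD40 as numbers 1 and 2) because all 112 pairs correlated over 0.1; libraries of the other cell type with the same number correlated at −0.75 to −0.53. The block is that number within cell type, so for GC against naive cells its p leaves out the spread between numbers. In set A 9 of 80 pairs passed 0.1, so no pairing was used. Single genes named are, per complex, the called members with the largest changes, plus core and isoform genes listed by role; a few were named after their values were seen, and 1 is not reported here. The members and lists were chosen with earlier results of these data known, and 12 comparisons (over time with IL-21 or anti-CD40 alone, for example) were added after values were seen. Promoters are RefSeq, GRCm38.p6. Alternatives tried were other filters, a pseudocount, centring, moderation without trend, the block, all libraries in 1 fit, and leaving out each library.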

Additional observations from a re-analysis of the deposited data

Results flagged for a closer look

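All results here are tested differences between GC and naive cells, or between time courses, and are given as log2 differences (GC minus naive unless said) with no explanation. Percentages beside a count of members are the shares of all genes called higher and lower in the same comparison. Groups of 2 or 3 libraries were not searched for a single outlying library, and the effect of leaving out each one is given in the next part.

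In the change from 2 h to 4 h with anti-CD40 in set A, 66 members differed (14.8% and 14.2%), led by Uqcr11 (−1.68), Ndufb8 (−1.59) and Cox7b (−1.56), with Ndufs1 (0.39) in the other direction. The change with IL-21 and anti-CD40 differed for 46 (11% and 16.3%), with Sdhc (−1.23), Ndufc1 (−0.99) and Ndufaf5 (−0.94) lower in GC cells and Sdhaf1 (0.64), Cox7a2l (0.60) and Ndufaf4 (0.53) higher. In set B the change with anti-CD40 differed for 2 (0.648% and 0.888%), among them Ndufaf4 (1.37, limma adjusted p = 0.0341). Without each of 7 anti-CD40 libraries of set B in turn fewer members differed, and without GC replicate 5 at 2 h the Ndufaf4 difference was 1.523.

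The effect of adding anti-CD40 to IL-21 differed for 24 members (11.2% and 10%), with Ndufb6 (−0.51), Ndufc2 (−0.48) and Uqcrb (−0.45) lower and Sdhaf1 (0.78) and Ndufaf4 (0.57) higher in GC cells. The effect of adding IL-21 to anti-CD40 differed for 3 (3.12% and 2.65%): Sdhaf2 (−0.36), Ndufc2 (−0.30) and Ndufaf4 (0.47).

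Against unstimulated cells, the effect of anti-CD40 differed for 1 member (2.65% and 1.46%), Sdhaf1 (1.57), as did that of anti-IgM, again for 1 (5.03% and 3.82%), Sdhaf1 (1.01). The effect of both antibodies differed for 3 (7.08% and 4.84%): Sdhaf1 (2.17), Atp5sl (−0.84) and Cox7a2 (−0.68). Within naive cells, the change from 2 h to 4 h with both antibodies minus that without stimulus differed for 4 members (4.53% and 6.62%), all higher, among them Ndufaf2 (1.69), Ndufaf4 (1.36) and Cox7c (1.31).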

How the results depend on the processing

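Counts are members called in either direction. Counts from refits other than the replicate block, in this part and above, stand without the share of all genes called in the same refit. A change in such a count therefore does not show whether members moved or all genes did. With the replicate block in set B, which follows from the pairing of libraries by number, counts were 10 for GC anti-CD40 against none, 4 for anti-IgM, 37 for both, 34 for both against anti-CD40, and in naive cells 33, 30, 47 and 30. The interactions gave 3, 19 and 15. GC against naive gave 53 without stimulus, 54 with anti-CD40 and 55 with both. Over time GC cells gave 51 with anti-CD40 and 5 with both, naive cells 27 without stimulus, 22 with anti-CD40 and 33 with both, the naive difference of changes 36 and the GC minus naive change with anti-CD40 40. With the block and without the GC anti-CD40 library of replicate 5 at 2 h, counts were 5 for GC anti-CD40 against none, 10 for both against anti-CD40, 6 for the interaction, 54 for GC against naive, 10 over time in GC cells and 16 for the change. Since GC and naive numbers ran opposite, a crossed replicate block was added after the data were seen, with 2, 14 and 12 calls for the interactions, 49, 53 and 54 for GC against naive, and 34 for the change.

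One fit of all 66 libraries with a set term, in which anti-CD40 libraries of both sets share a group, gave in set A, for IL-21 with anti-CD40 against anti-CD40, against IL-21, and IL-21 against anti-CD40, 4, 15 and 8 in GC cells and 0, 14 and 11 in naive cells. Its interactions gave 0 for IL-21 added and 2 for anti-CD40 added, and the change with IL-21 and anti-CD40 gave 15. GC against naive with anti-CD40 gave 39, but this difference refers to set B, because the set term of each cell type was left out of it. Over time it gave 34 (anti-CD40), 1 (IL-21) and 17 (both) in GC cells and 28 (IL-21) and 34 (both) in naive cells. For set B it gave 4 (GC anti-IgM), 14 (GC both), 8 (both against anti-CD40), and in naive cells 15 (anti-CD40), 28 (both) and 5. The interactions with anti-IgM and both gave 6 and 6, GC against naive 37 without stimulus and 42 with both, and time 34 in GC cells with anti-CD40 and in naive cells 8 without stimulus, 47 with anti-CD40 and 14 with both. The naive difference of changes gave 11 and the GC minus naive change 44. In this fit 11 of 515 single-gene values had the opposite sign, all set against the main GC minus naive difference with anti-CD40 in set A: Atp5b −0.14, Atp5g1 −0.74, Cox6b1 −0.018, Cox7b −0.093, Ndufs7 −0.63, Ndufv2 −0.26, Sdha −0.30, Sdhd −0.023, Uqcr10 −0.17, Uqcrc1 −0.45 and Uqcrfs1 −0.02. Since the fit's difference refers to set B, these values do not show that the set A calls reversed.

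Without a filter, counts were 5 for naive IL-21 added to anti-CD40, 1 for its interaction, 1 for GC and 7 for naive anti-IgM, 19 for GC against naive with anti-CD40 and 2 for GC cells over time with anti-CD40 in set B. The anti-IgM interaction gave 2 with a stricter filter, with log2(value + 1) and with centring, GC anti-IgM 1 with centring and without trend, and naive IL-21 added to anti-CD40 5 without trend. The cause of these differences was not tested.

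Leaving out each library in turn, set A counts ranged over 7–19 and 4–10 (IL-21 added, GC and naive), 34–42 and 34–46 (anti-CD40 added), 21–30 and 17–32 (IL-21 against anti-CD40), 1–6 and 17–28 (interactions), 69–75 (GC against naive), 33–58, 12–19 and 42–50 (GC over time with anti-CD40, IL-21 and both), 66–71, 54–63 and 56–63 (naive), and 61–68 and 41–50 (changes). The low ends 7, 4, 17 and 33 came without GC anti-CD40 2 h replicate 1, naive IL-21 with anti-CD40 2 h replicate 1, naive IL-21 2 h replicate 2 and GC anti-CD40 2 h replicate 2. In set B they were 2–3, 1–2, 5–8 and 1–2 (GC), 5–10, 6–13, 10–17 and 2–3 (naive), 1–1, 1–3 and 2–5 (interactions), 13–24, 18–31 and 17–29 (GC against naive without stimulus, with anti-CD40 and with both), 0–0, 0–8 and 0–0 (GC over time), 1–4, 1–3 and 1–6 (naive), and 1–6 and 0–2 (changes); the low ends 13, 18, 17 and 0 came without GC none 4 h replicate 1, GC anti-CD40 4 h replicate 4, GC both 2 h replicate 1 and GC anti-CD40 2 h replicate 5. Without 1 of the unstimulated, anti-CD40 or anti-IgM naive libraries in turn, the naive counts fell as low as 5 for anti-CD40 and 6 for anti-IgM, and counts of 5 or fewer moved by over 1.5 times under many single omissions. There the lone library of a group is assumed to vary like the others. Of 17252 single-gene calls under these omissions, 833 no longer passed. Unknown read depth limits statements on low members such as Cox6b2.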

Other observations

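Genes that regulate respiratory genes were counted in the same fits. Of 15 such genes, 8 rose and 1 fell in naive cells with anti-IgM and anti-CD40 (20.7% and 21.6% of all genes; median 0.48), with Myc at 3.08 ± 0.21 (SE), Gabpb1, a GABP subunit, at 1.44 ± 0.13 and the coactivator Pprc1 at 1.33 ± 0.23 on the log2 scale, while Tfam, the mitochondrial transcription factor, fell by 0.62 ± 0.10. In GC cells with both antibodies 6 rose and 0 fell (13.9% and 12.4% of all genes), with Myc at 3.40 ± 0.21 and Pprc1 at 1.95 ± 0.23. Over time in naive cells of set A with anti-CD40, Myc (−1.34 ± 0.13) and Gabpb1 (−0.63 ± 0.09) fell while the mitochondrial RNA polymerase Polrmt rose by 1.40 ± 0.13 (limma, all adjusted p under 0.05).

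Changes over time also differed by exon length among genes that are no members. In naive cells of set A with anti-CD40 the median change was 0.10 for other genes with under 1 kb of exon and −0.04 for those over 3 kb, against 0.48 and 0.47 for members of those lengths. In unstimulated naive cells of set B the medians were −0.41 and 0.09 for other genes and −0.26 and −0.16 for members, and in GC cells of set A with anti-CD40 −0.24 and 0.04 against −0.39 and −0.01.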
